A study of Rattus norvegicus with 20 samples.

Results

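Of the 10 heart libraries of this series, 5 held the transcript of Myl7, the regulatory myosin light chain of atrial muscle, at 100 FPKM or more, and 5 held it below 100 FPKM. FPKM is fragments scaled to transcript length and to a size set for each library, a level that can be compared between genes. The 5 hearts were chosen by that level alone, out of 10 hearts and 20 libraries in all. Myl7 and every gene that went with it in these hearts are therefore described and not tested.

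The study gave male rats a telemeter for blood pressure at 8 weeks of age and then a diet of 4% NaCl for 3 weeks. Over those weeks a minipump under the skin delivered Maresin 1 (MaR1), a specialized pro-resolving lipid, or its vehicle; the dose reached at most 1.3 µg/kg/day. All animals carried the telemeter, the pump and the high-salt diet, and their genotype is labelled wild type; the labels name no strain. Each treatment had 5 animals, with 1 heart library and 1 kidney cortex library from each. The heart piece is described as left ventricle. Animals RB030 to RB034 received vehicle and RB035 to RB039 received MaR1.

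Atrial and ventricular muscle cells build their sarcomeres from different light chains. Atrial cells use Myl7 and Myl4, ventricular cells use Myl2 and Myl3, and the adult rat ventricle keeps the atrial forms low. Atrial cells also make sarcolipin (Sln), a small inhibitor of the calcium pump of the sarcoplasmic reticulum, and store atrial natriuretic peptide (Nppa) in granules. The left atrium lies against the base of the left ventricle, at the mitral valve ring, where fibrous tissue, fat, nerve and the mesothelial cover of the heart also meet.

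The 10 heart libraries held 21543513 to 30342034 assigned fragments. Assigned fragments were 26.1 ± 3.33 M in hearts with Myl7 and 24.1 ± 0.593 M without (SD, n = 5 each, exact permutation test, two-sided, p = 0.254). The difference of 1.97 M was below the SD with Myl7 and above the SD without it. Genes at 1 FPKM or more numbered 12279 ± 90.2 with Myl7 and 12125 ± 45.7 without it (exact permutation test, two-sided, p = 0.0159, adjusted over 4 measures p = 0.0635). The smallest p these group sizes allow is 0.00794. The count of genes at 1 FPKM includes Myl7, Mybphl and Rab15, which reached that level only in the hearts with Myl7. Nothing is therefore read from its p. The share of fragments from mitochondrial genes was 26.7 ± 3.87% with Myl7 and 29.6 ± 2.93% without (exact permutation test, two-sided, p = 0.230). Hearts with Myl7 came from 3 vehicle and 2 MaR1 animals, and hearts without it from 2 and 3 (Fisher's exact test, two-sided, p = 1). Vehicle heart RB031, which held Myl7, stood apart from the other 4 in many genes, and vehicle heart RB030, which did not, stood apart in Nppa and in genes of load and injury; both are given beside the results they touch.

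Myl7 (ENSRNOG00000014409, chromosome 14, 80779776 to 80783244 on the minus strand in the deposited table, whose genome build no source used here gives) was at 784 FPKM in vehicle heart RB033, 529 in RB034 and 225 in RB031. Among MaR1 hearts it was at 316 FPKM in RB035 and 151 in RB038. The other 5 hearts lay between 0.163 and 1.65 FPKM, so that the members nearest the limit on either side were at 151 and 1.65 FPKM. Kidney libraries held 0 to 0.144 FPKM. In bulk tissue, more cells of a type and more of its RNA per cell cannot be told apart, here and below, and no source used here says how the heart pieces were cut. No heart lay between the levels of RB038 and RB032, and a limit of 50 FPKM gave the same 2 classes, while a limit of 200 FPKM moved RB038 to the other class.

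A compact set of atrial muscle genes went with Myl7. The sequences before the start sites of its leading members are printed because these genes moved together over the hearts; Nppa, whose levels overlapped between the classes, stands beside them. Each is the 250 bases before the start, 5′ to 3′ on the gene's strand, from RefSeq on build GRCr8, with matches to the searched motifs in capitals. Of the 24 genes in the atrial list, 17 had an entry.
Myl7, chr14:84996625-84996874, minus strand: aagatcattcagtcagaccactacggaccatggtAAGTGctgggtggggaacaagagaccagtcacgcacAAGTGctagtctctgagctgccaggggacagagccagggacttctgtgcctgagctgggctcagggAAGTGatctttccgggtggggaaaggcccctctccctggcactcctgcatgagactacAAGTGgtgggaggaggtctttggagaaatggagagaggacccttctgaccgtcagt
Myl4, chr10:89975900-89976149, plus strand: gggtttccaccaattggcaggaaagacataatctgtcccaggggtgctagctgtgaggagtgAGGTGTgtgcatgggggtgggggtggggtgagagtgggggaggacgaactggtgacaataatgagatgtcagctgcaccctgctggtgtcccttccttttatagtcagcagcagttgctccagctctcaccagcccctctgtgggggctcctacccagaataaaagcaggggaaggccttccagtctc
Mybphl, chr2:198693202-198693451, plus strand: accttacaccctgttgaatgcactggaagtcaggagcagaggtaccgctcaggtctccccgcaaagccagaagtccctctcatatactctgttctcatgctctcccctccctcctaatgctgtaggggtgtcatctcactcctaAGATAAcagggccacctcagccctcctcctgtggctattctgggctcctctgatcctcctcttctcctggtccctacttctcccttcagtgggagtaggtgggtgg
Nppa, chr5:163711934-163712183, plus strand: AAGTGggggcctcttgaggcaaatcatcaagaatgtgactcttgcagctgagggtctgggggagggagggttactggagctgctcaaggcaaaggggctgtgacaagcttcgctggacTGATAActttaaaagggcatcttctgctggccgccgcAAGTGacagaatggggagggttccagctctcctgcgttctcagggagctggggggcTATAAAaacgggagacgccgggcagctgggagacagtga
Motifs were searched on both strands: AAGTG, a core of NKX2-5 sites; AGGTGT, the core bound by T-box factors; a GATA word, either AGATAA or its variant beginning with T; and MEF2 and CArG by name. The TATA box word TATAAA was searched on the gene's strand and can lie inside a MEF2 or CArG match. AAGTG occurred 4 times before Myl7, and 0.263% of 33469 promoters held it at least as often, while 40.6% held it at least once. The limit of 4 was taken from Myl7 itself, so nothing is read from the smaller share. Myl4 held AGGTGT, present in 11.6% of promoters. Mybphl held a GATA word and Nppa another, against 16.9% of promoters. Nppa also held AAGTG at 2 places and TATAAA, the latter present in 8.06% of promoters. None of the 4 windows held MEF2 or CArG, which stood in 2.96% and 1.5% of promoters, and no motif was found in all 4. A match describes the letters of this window and nothing about binding.

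Myl4, the essential light chain of atrial muscle (chromosome 10, 89449443 to 89485363, plus strand), was at 858, 539 and 239 FPKM in vehicle hearts RB033, RB034 and RB031. It was at 369 and 177 FPKM in MaR1 hearts RB035 and RB038, and between 2.19 and 4.95 FPKM in the 5 hearts without Myl7. The classes stood far apart, with a log2 difference of 6.53 ± 0.37 (SE; log2 of FPKM + 0.5, with minus without Myl7, treatment in the model). Mybphl, a myosin-binding protein of atrial and conduction muscle (chromosome 2, 196005325 to 196018824, plus strand), was at 62.4, 43.6, 22.2, 18.5 and 10.8 FPKM in RB033, RB034, RB035, RB031 and RB038. In the other 5 hearts it was at 0 to 0.172 FPKM, 3 of them listed at 0, and the log2 difference was 5.46 ± 0.33. Sln (chromosome 8, 54243542 to 54247791, plus strand) was at 1742, 919, 751, 435 and 289 FPKM in the same order of hearts. It was not near 0 in the others, at 9.41 to 61.4 FPKM, and its log2 difference was 4.35 ± 0.53.

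**Figure D1:**
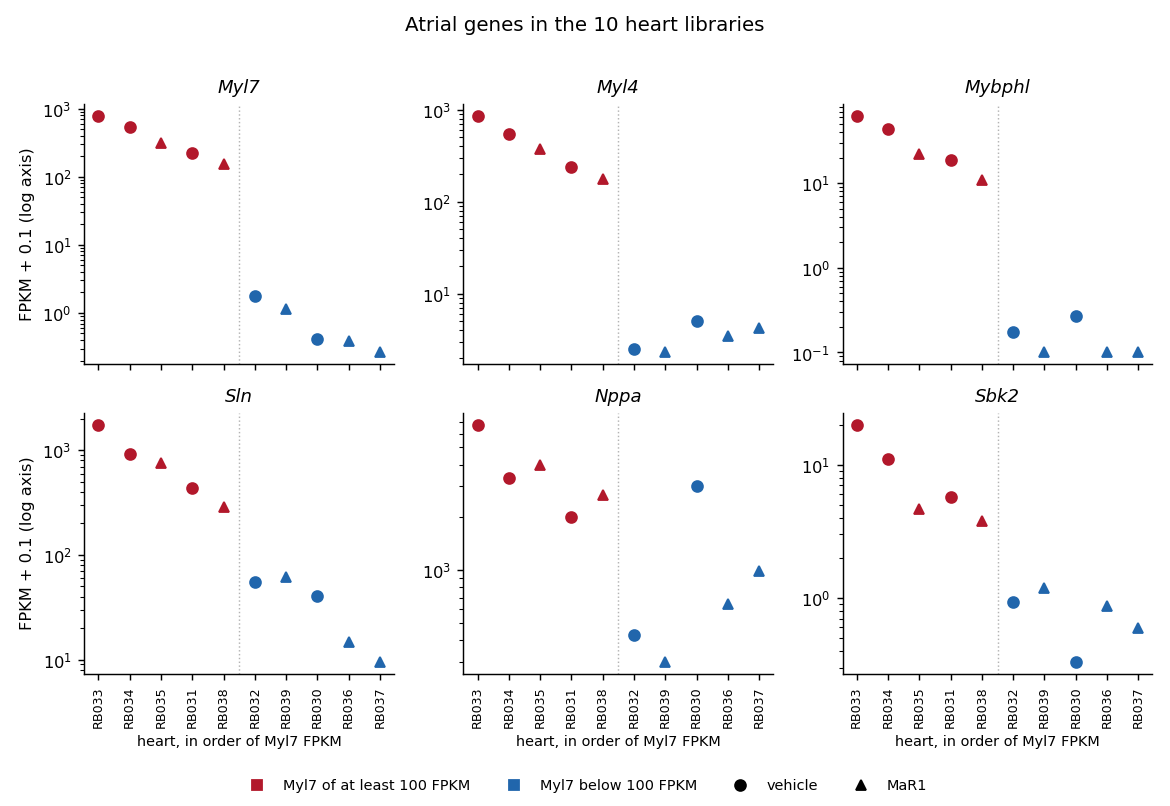
FPKM + 0.1 on a log axis of 6 atrial genes in each of the 10 hearts, ordered from the highest to the lowest Myl7; colour gives the Myl7 class and shape the treatment. Myl4, Mybphl and Sln step down with Myl7, Sbk2 separates the classes in another order, and Nppa in vehicle heart RB030 lies at 3022 FPKM, inside the range of the hearts with Myl7.

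Within the 5 hearts Myl4, Mybphl and Sln kept a nearly fixed proportion to Myl7. After the median of the other 5 hearts was taken off, Myl4 stood at 1.09 ± 0.0618 times the FPKM of Myl7 (SD over 5 hearts), a coefficient of variation of 5.67%. For Mybphl the ratio was 0.0773 ± 0.00594 (7.68%) and for Sln 1.90 ± 0.289 (15.3%), across hearts whose Myl7 itself ranged from 151 to 784 FPKM. Rab15, a small GTPase of endosome recycling, had a ratio that varied by 16.5%, and Pam, the enzyme that amidates peptides and is a major membrane protein of atrial granules, one that varied by 16.9%. Stard10, a lipid transfer protein, varied by 25.8%, Sbk2 by 23.7% and Sbk3 by 24.8%. A steady ratio was not general to the atrial list nor limited to it. Among other atrial genes it varied by 82.7% for Dkk3, 101% for Gja5 and 125% for Kcnj3, and among genes outside the list by 25.7% for Gpc3 and 28.6% for C4a, but by 136% for Fmod, 152% for Comp, 92.9% for Adipoq and 64.9% for Msln. These genes share the libraries and their scaling with Myl7, so their proportions are a description over 5 hearts.

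**Figure D2:**
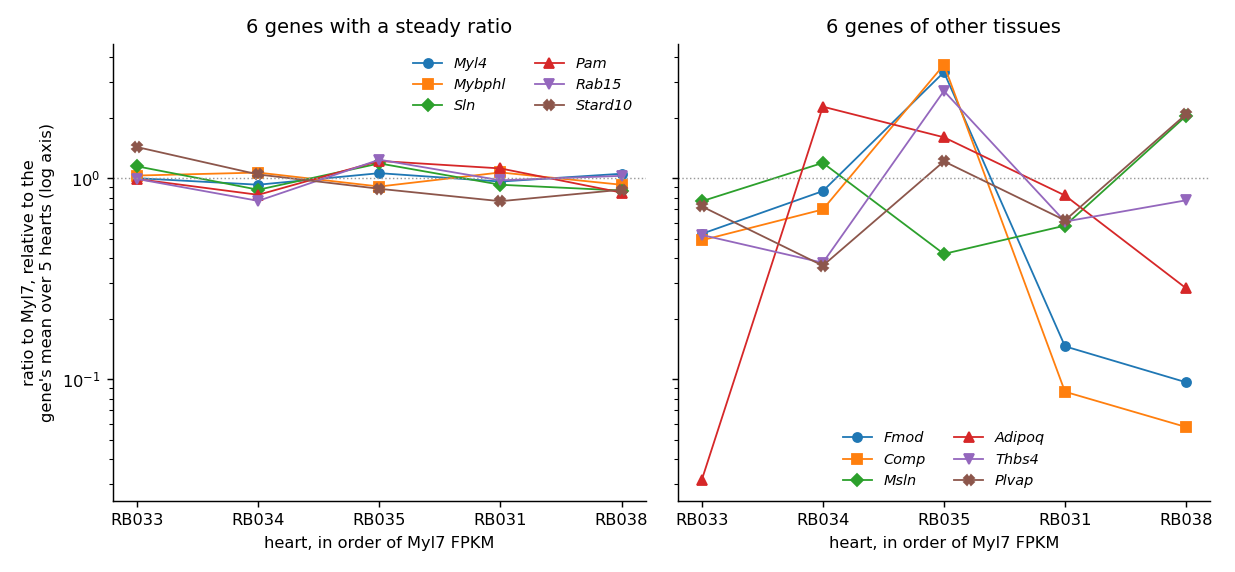
Ratio of each gene's FPKM, less its median in the hearts without Myl7, to Myl7 FPKM in the 5 hearts with Myl7, divided by the gene's mean ratio, on a log axis. The genes were chosen for drawing after their values were seen: the 6 on the left have steady ratios, while Fmod and Comp on the right lie highest in RB035 and lowest in RB038, and Adipoq lies lowest in RB033.

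The order RB033, RB034, RB035, RB031, RB038 that Myl7 set was found in 67 of 12236 tested genes (0.548%); a tested gene had a mean of at least 1 FPKM over the 10 hearts. In the atrial list 5 of 21 tested genes other than Myl7 had that order, namely Myl4, Mybphl, Sln, Stard10 and Pam. Rab15 and Gpc3, a cell-surface proteoglycan, had it too; Gpc3 was at 4.10 to 8.76 FPKM with Myl7 and at 1.10 to 2.82 without it. Among the genes whose classes did not overlap and were higher with Myl7, 12 of 282 had the order (4.26%).

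In the atrial list 18 of 21 tested genes were higher with Myl7, and 10 of the 21 did not overlap between the classes. Over all tested genes 47.8% were higher with Myl7 and 2.3% were higher without overlap, a share that the choice of hearts by an atrial gene bears on, so nothing is read from the difference. The list's median log2 difference was 0.54 and that of all tested genes was -0.01.

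Sbk2 and Sbk3, related kinases with an SH3-binding domain, lie side by side on chromosome 1, at 68874152 to 68881916 and 68868238 to 68871392 on the plus strand. Sbk2 was at 19.7, 10.9, 4.56, 5.60 and 3.66 FPKM in RB033, RB034, RB035, RB031 and RB038, against 0.231 to 1.08 in the other hearts. Sbk3 ran from 3.25 to 19.0 FPKM against 0.333 to 0.798, and the log2 differences were 2.68 ± 0.39 and 2.77 ± 0.35. Both were highest in RB033, and neither had the order of Myl7. Rxfp1, the relaxin receptor, which acts on atrial rate and force in the rat, was at 2.22 to 8.88 FPKM with Myl7 and 0.364 ± 0.110 without it (mean ± SD, n = 5), a log2 difference of 2.26 ± 0.23. Stard10 was at 21.7 to 60.8 FPKM against 10.4 to 19.3, a narrower gap of 1.08 ± 0.29.

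Nppa did not separate the classes. It was at 6698, 3354, 4000, 2025 and 2675 FPKM in RB033, RB034, RB035, RB031 and RB038, and at 302 to 991 FPKM in 4 of the other hearts. In vehicle heart RB030, with Myl7 at 0.318 FPKM, Nppa was at 3022 FPKM, above RB031 and RB038. That heart was also the highest of the 10 for Nppb, the ventricular natriuretic peptide, at 444 FPKM. The log2 difference of Nppa was 2.07 ± 0.56 with RB030 and 2.71 without it, and 12 of 21 atrial genes rather than 10 did not overlap once RB030 was left out; over all tested genes the share higher without overlap was then 4.14%. Pam overlapped for the same heart, at 309 to 527 FPKM with Myl7 against 365 in RB030 and 254 to 268 in the other 4.

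Bmp10, a growth factor of the adult right atrium, was at 8.61 FPKM in MaR1 heart RB035 and at 0 to 0.0677 in the other 9, and it lay under the limit for testing. The other 4 hearts with Myl7 held at most 0.0433 FPKM of it.

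The atrial regulators Nr2f2, Nr2f1 and Tbx5 differed less than Myl4, Mybphl and Sln. Nr2f2 (COUP-TFII), which maintains atrial identity, was at 8.54 to 9.53 FPKM with Myl7 and 4.74 to 7.70 without, a log2 difference of 0.51 ± 0.09. Its relative Nr2f1 overlapped, at 2.30 to 3.08 against 1.45 to 2.51 FPKM. Tbx5, a T-box factor of the atria and the left ventricle, was at 9.87 to 18.5 against 6.30 to 10.3 FPKM, overlapping by 1 heart without Myl7, RB039. Dkk3, a secreted Wnt-pathway protein, was at 22.7 to 50.8 against 14.4 to 22.4 FPKM, and Myl1, a light chain of fast skeletal muscle and embryonic heart, at 1.87 to 3.27 against 0.891 to 1.65.

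Ion channels known from atrial electrophysiology had small differences of either sign. Kcna5, the channel of the ultrarapid potassium current, was lower with Myl7, by a log2 difference of -0.38 ± 0.18, and the classes overlapped. Kcnk3 (TASK-1) was at 37.8 to 53.8 FPKM with Myl7 and 46.5 to 60.7 without, and Fgf12, a modulator of sodium channels, at 3.44 to 6.07 and 4.46 to 7.10. Kcnj3 and Kcnj5, which form the acetylcholine-gated channel, had log2 differences of 0.22 ± 0.16 and 0.54 ± 0.21. The connexin Gja5 had one of 0.35 ± 0.14 and the growth factor Angpt1 one of 0.10 ± 0.26, and all 4 overlapped. Cacna2d2, a calcium channel subunit, did not overlap, at 4.77 to 5.91 against 3.45 to 4.73 FPKM.

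Ventricular muscle genes were present in all 10 hearts. Myl2 was at 1205, 1494, 1290, 2204 and 1792 FPKM in RB033, RB034, RB035, RB031 and RB038, and at 2014 to 2276 FPKM in the hearts without Myl7. In 4 of the 5 hearts it lay below every heart without Myl7, and RB031 lay among them; the log2 difference was -0.46 ± 0.17. Myl3, the essential light chain of ventricular muscle, was at 1346, 1667, 1315, 2156 and 1939 FPKM in the same hearts and at 2214 to 2624 FPKM in the others. It did not overlap, with a log2 difference of -0.55 ± 0.16, which was -0.24 when RB033, RB034 and RB035 were left out.

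In the ventricular list 11 of 15 tested genes were lower with Myl7 and Myl3 alone did not overlap. Over all tested genes 47.8% were higher and 1.95% were lower without overlap. The list's median log2 difference was -0.34, and without RB031 4 of 15 were lower without overlap, when 8.16% of all tested genes were. Kcnip2, the subunit that sets the transient outward current, was at 151 to 256 FPKM with Myl7 and 254 to 332 without, a log2 difference of -0.60 ± 0.13. Kcnd2, the pore of the same current, had one of -0.59 ± 0.25, Fhl2, a LIM protein of the sarcomere, one of -0.49 ± 0.20, and Lbh, a cofactor of heart development, one of -0.41 ± 0.12. Irx4, the ventricular Iroquois factor, was at 6.69 to 11.1 against 9.91 to 13.7 FPKM. Gja1, the main ventricular connexin, Kcnj2, of the inward rectifier current, and Prdm16 had log2 differences of -0.23 ± 0.11, -0.38 ± 0.26 and -0.22 ± 0.14.

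4 ventricular genes were not lower. Irx5 and Irx3, which pattern repolarization across the wall, had log2 differences of 0.57 ± 0.19 and 0.30 ± 0.29 and were highest in MaR1 heart RB038, at 9.68 and 9.25 FPKM. Myh7, the slow heavy chain, was at 476 to 738 FPKM with Myl7 and 293 to 870 without, and Corin, the protease that activates pro-ANP, at 11.3 to 24.1 and 11.7 to 20.1. Hey2, a Notch target of compact ventricular muscle, was nearly level, with a difference of -0.0034 ± 0.11.

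**Figure D3:**
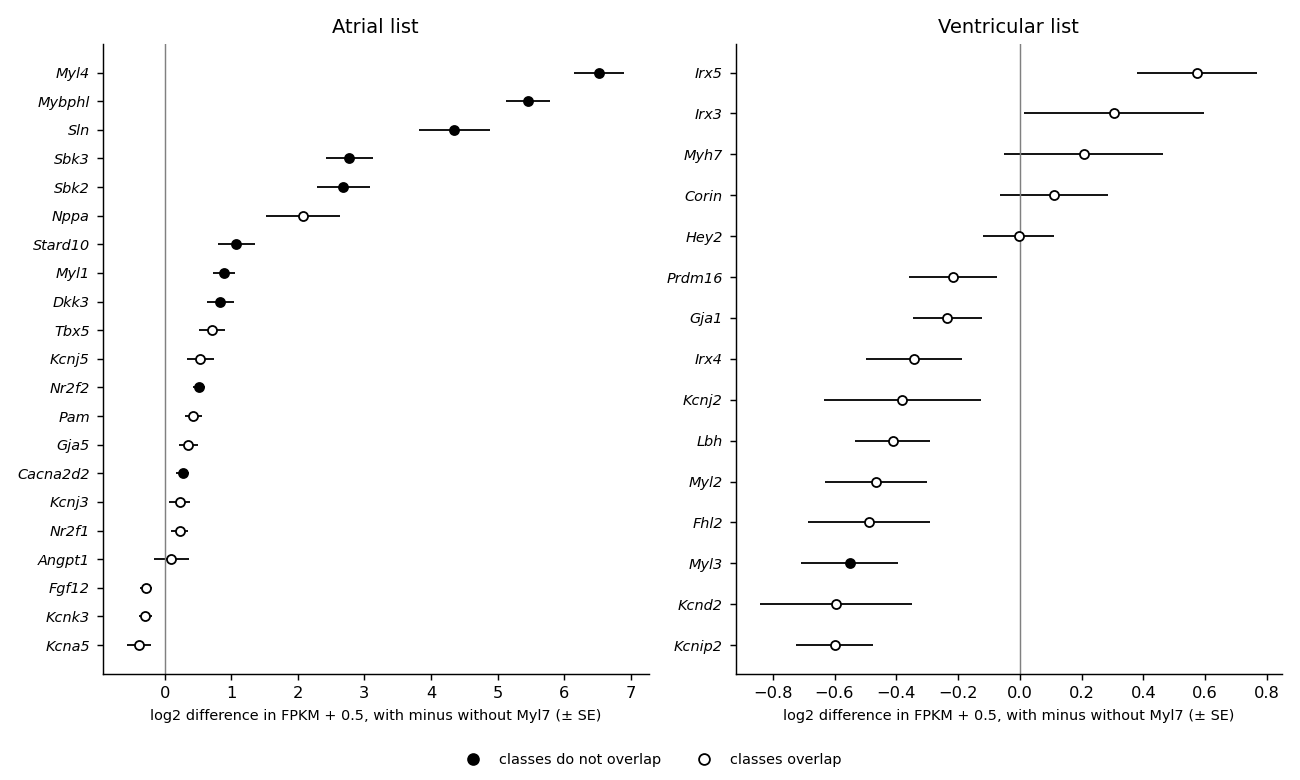
Log2 difference in FPKM + 0.5 between hearts with and without Myl7 (point) and its standard error (bar) for the tested atrial genes other than Myl7 and the tested ventricular genes; filled points are genes whose classes do not overlap. The panels have different scales: atrial differences reach 6.53 in Myl4, and ventricular differences lie between -0.60 and 0.57.

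All 14 tested genes of fatty acid oxidation and energy buffering had a log2 difference below 0, and all 14 overlapped between the classes. Their median was -0.46, where that of all tested genes was -0.01 and 47.8% of them were above 0. Acadm, the medium-chain acyl-CoA dehydrogenase, was at 215 to 411 FPKM with Myl7 and 306 to 445 without, and Ckm, the muscle creatine kinase, at 478 to 939 and 677 to 1228. Fabp3, the fatty acid carrier of heart muscle, was at 742 to 1496 and 1059 to 1578 FPKM. The highest of the 5 hearts with Myl7 was RB031 for all 3 genes. The median was -0.57 without RB031 and -0.18 when RB033, RB034 and RB035 were left out, with 14 of 14 below 0 in both.

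Of 26 sarcomere genes other than Myl7, 16 were lower with a list median of -0.36, and Myl4, Mybphl and Myl1 alone were higher without overlap. Over all tested genes 47.8% were higher, 2.3% were higher without overlap and 1.95% were lower without overlap. Titin (Ttn) had a log2 difference of -0.59 ± 0.24 and Myh7b, a slow heavy chain, one of -0.60 ± 0.24. Of 20 calcium cycling genes 8 were higher and 12 lower, with a median of -0.13, and under total-fragment scaling 10 were higher and 10 lower; Sln and Cacna2d2 were higher without overlap. Atp2a2, the calcium pump that sarcolipin inhibits, had one of -0.42 ± 0.17, and Hrc, a calcium-binding protein of the sarcoplasmic reticulum, one of -0.44 ± 0.20. Cacna1g, a T-type calcium channel, was higher by 0.97 ± 0.30 and overlapped. Of 19 potassium channel genes 17 were lower, and under total-fragment scaling 14 were lower and 5 higher. None of the 19 was without overlap, and the log2 difference of Kcnj11 (Kir6.2) was -0.41 ± 0.15.

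All 18 tested fibroblast and matrix genes had a log2 difference above 0, as 47.8% of all tested genes did. Their median was 0.85, and 4 of the 18 did not overlap, against 2.3% of all tested genes higher without overlap. Col1a2, a chain of type I collagen, was at 196 to 408 FPKM against 105 to 184, and Lum, a small proteoglycan of collagen fibrils, at 44.4 to 115 against 26.2 to 43.3. Postn (periostin) was at 19.8 to 71.2 FPKM with Myl7 and at 2.44 to 5.83 in 4 of the others, but at 34.7 in RB030, where Nppa was high too. The median was 0.45 when RB033, RB034 and RB035 were left out, with 18 of 18 above 0. Without RB031 12 of 18 did not overlap, when 8.33% of all tested genes were higher without overlap.

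Genes of valve and fibrous tissue split the 5 hearts with Myl7 into 3 and 2. Fmod (fibromodulin) was at 38.5, 42.3 and 96.0 FPKM in RB033, RB034 and RB035, at 4.90 and 3.30 in RB031 and RB038, and at 1.65 to 2.91 in the hearts without Myl7. Comp (cartilage oligomeric matrix protein) was at 12.8, 12.3 and 37.2 FPKM in the first 3, at 1.33 and 0.992 in the other 2, and at 0.377 to 1.00 without Myl7. Chad (chondroadherin) and Cilp2 followed the same split, at 5.25 to 24.2 and 6.97 to 21.7 FPKM in the 3 hearts and at most 0.435 and 0.0210 in the other 2, against at most 1.00 and 0.339 in the hearts without Myl7. All 4 genes were highest in RB035, whose Myl7 was only the third highest. Thbs4 (thrombospondin 4) was higher in all 5, at 11.4 to 62.8 FPKM against 1.15 to 6.56.

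The list of 11 tested valve and fibrous genes had a median log2 difference of 1.59. Its summed level was 65.7 to 356 FPKM with Myl7 and 63.4 to 83.8 without, where Scx made up most of it. RB033, RB034 and RB035 were left out as an alternative because genes of this list were high there. A smaller difference of Fmod without these hearts, 0.82 in place of 2.99, follows from that choice, and that of Myl4 was 5.75. Comp, Chad, Cilp2, Hapln1 and Wif1 then fell below the limit for testing. The median of 1.59 therefore rests in part on genes that were tested only through the hearts where they were high. Scx, the tendon factor of the same list, was lower with Myl7, at 35.3 to 44.3 FPKM against 52.2 to 68.8. Scx (chromosome 7, 108176608 to 108178626, plus strand) lies inside Bop1 on the other strand, and no source used here says whether counting used strand, so this value may hold reads of Bop1.

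In the list of mesothelium and epicardium 8 of 9 tested genes were higher with Myl7, and 3 were higher without overlap. Over all tested genes 47.8% were higher and 2.3% were higher without overlap. Within the list Wt1 had a log2 difference of -0.04 and Gpm6a one of 0.51. The genes of largest difference, Msln, Upk3b and Lrrn4, picked a different group of hearts. Msln (mesothelin) was at 17.5, 18.3 and 8.98 FPKM in RB033, RB034 and RB038, at 3.93 and 3.86 in RB035 and RB031, and at 0.0235 to 3.17 in the hearts without Myl7. Upk3b, another mesothelial marker, was at 7.47, 8.69 and 4.27 FPKM in the same 3 hearts, at 2.59 and 1.43 in the other 2, and at 0 to 1.64 without Myl7. Lrrn4 ranked the hearts similarly, at 0.865 to 5.28 against 0 to 0.724 FPKM. Among the hearts without Myl7, RB032 and RB030 were the highest for all 3 genes. Without RB033, RB034 and RB035, Lrrn4, Krt8 and Upk1b of this list fell below the limit for testing. The counts of the list therefore rest in part on genes that were tested only through the hearts where they were high.

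In the list of endothelium and endocardium 9 of 11 tested genes were higher with Myl7, with a median log2 difference of 0.23. Plvap, Npr3 and Vwf were higher without overlap. Over all tested genes 47.8% were higher and 2.3% were higher without overlap. Plvap, of fenestrated and venous endothelium, was at 4.80 to 14.4 FPKM with Myl7 and 0.512 to 3.35 without, a log2 difference of 2.02 ± 0.37. Npr3, the natriuretic peptide clearance receptor found in endocardium, was at 16.2 to 44.5 against 6.83 to 14.0 FPKM, and Vwf at 39.3 to 79.8 against 19.5 to 31.8. Pecam1, carried by all endothelium, was at 65.2 to 91.2 against 64.5 to 82.2 FPKM, and Emcn (endomucin), of venous and capillary endothelium, had a log2 difference of 0.12.

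The adipocyte list was not higher as a whole: 4 of 7 tested genes were higher and 3 lower, none without overlap, and its summed level was 349 to 411 FPKM with Myl7 and 381 to 459 without. Within it Fabp4, a fatty acid carrier, and Lipe, a lipase, had log2 differences of -0.21 and -0.25. Adipoq (adiponectin) was at 18.1 FPKM in RB034, 7.66 in RB035 and 2.81 in RB031, and at 0.406 and 0.679 in RB033 and RB038, against 0 to 0.579 in the hearts without Myl7. Plin1, which coats fat droplets of adipocytes, was at 7.42, 2.36 and 1.20 FPKM in those first 3 hearts, and Ca3, a carbonic anhydrase of fat and slow muscle, was at 47.4, 27.2 and 5.31 FPKM. In the Schwann cell and nerve list 10 of 11 tested genes were higher, with a median of 0.45, and none was without overlap. Over all tested genes 47.8% were higher and 2.3% were higher without overlap. S100b, a calcium-binding protein of Schwann cells, was at 6.40 and 7.25 FPKM in RB034 and RB035 and at 0.131 to 2.24 in the other 8. Without RB033, RB034 and RB035, S100b, Cdh19 and L1cam of this list and Adipoq and Plin1 fell below the limit for testing.

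**Figure D4:**
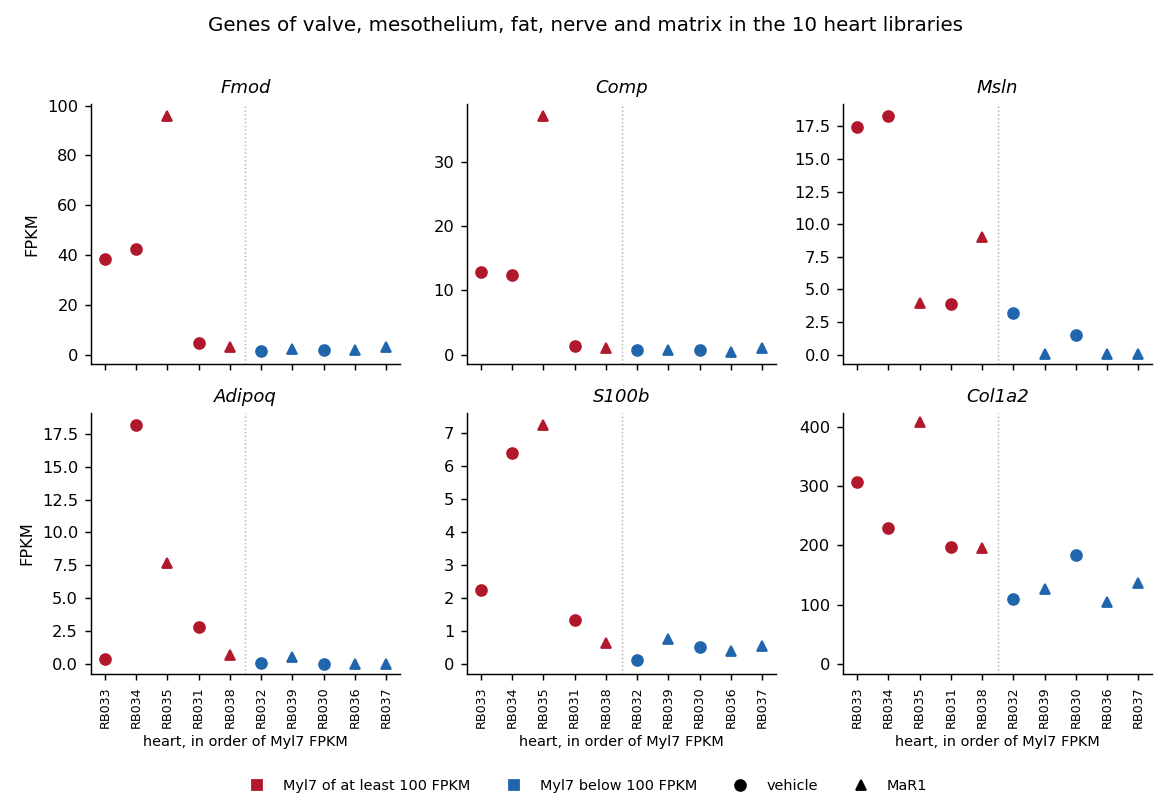
FPKM on linear axes of Fmod, Comp, Msln, Adipoq, S100b and Col1a2 in each heart, ordered by Myl7; colour gives the Myl7 class and shape the treatment. The high hearts differ by gene: RB035 for Fmod, Comp, S100b and Col1a2, and RB034 for Msln and Adipoq.

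Lists of lung and skeletal muscle genes had 1 tested gene each and those of lymphocytes and red cells 3 each, too few to describe by overlap. Sftpb, Sftpa1 and Myh4 were at most 0.1 FPKM in every heart. Kap, an abundant transcript of kidney proximal tubule, was at 1.54 to 19.5 FPKM with Myl7 and 1.13 to 49.9 without. The 4 highest values of Kap were in MaR1 hearts, and its list was not ordered by Myl7. In the conduction list 1 of 11 tested genes did not overlap, where 2.3% of all tested genes were higher without overlap. It was Vsnl1, a calcium sensor of the sinoatrial node and atria, at 0.950 to 3.08 against 0.312 to 0.880 FPKM. Without RB033, RB034 and RB035 Vsnl1 fell below the limit for testing. Hcn4, the main pacemaker channel, was at 1.31 to 10.6 against 2.46 to 9.56. In the retinoid list Crabp2, a retinoic acid carrier, did not overlap, at 2.38 to 4.64 against 1.16 to 1.84 FPKM.

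Across all 12236 tested genes other than Myl7, 282 were higher (2.3%) and 239 lower (1.95%) without overlap between the classes. At an adjusted p under 0.05 in limma 41 were higher (0.335%) and 5 lower (0.0409%); the classes were made from a readout of the same libraries, so nothing is read from these shares. With hearts and kidneys of the same animals in 1 model with the replicate block, 448 were higher and 219 lower. Without RB031 they were 1112 and 1014, and 1019 and 999 genes did not overlap. Without RB038 92 were higher and 7 lower, and without any 1 of the other 8 hearts between 4 and 20 genes passed in all. With FPKM rescaled to the total of assigned fragments, which moved the median of all genes from -0.01 to 0.11, 347 were higher and 74 lower without overlap in place of 282 and 239.

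The 5 hearts did not share the difference equally. MaR1 heart RB035 was the highest of the 5 in 182 of the 282 higher genes (64.5%), and RB033, with the highest Myl7, in 75 (26.6%). Vehicle heart RB031 was the lowest of the 5 in 126 (44.7%) and RB038 in 105 (37.2%). Among the 239 lower genes RB035 was the lowest in 178, and RB031 lay closest to the hearts without Myl7 in 103 (43.1%).

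Beyond the genes above, the higher genes of largest difference included Obp3, a lipocalin, at 1.48 to 14.3 FPKM against 0.198 to 0.796. Prelp, a matrix proteoglycan, was at 53.3 to 226 FPKM against 34.1 to 47.6, and Cgnl1, a junction protein of endothelium and epithelium, at 16.2 to 39.7 against 7.24 to 14.1. Nsg1, an endosomal protein of neurons, was at 4.91 to 13.1 FPKM against 1.58 to 2.95. Scara3, Col12a1, Smoc1, Ces1d, Sbsn and Sbspon had log2 differences of 1.37 to 1.58. C4a had one of 1.97 ± 0.30, and its value is uncertain because C4b is a near-identical copy. Without RB033, RB034 and RB035, Obp3, Rab15, Smoc1, Ces1d, Sbsn and Sbspon fell below the limit for testing. These genes were thus tested only through hearts where they were high.

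The lower genes of largest difference were smaller in size. Sctr, the secretin receptor, was at 10.8, 10.6, 3.89, 10.6 and 9.76 FPKM in RB033, RB034, RB035, RB031 and RB038 and at 15.8 to 21.9 in the others, a log2 difference of -1.14 ± 0.22. A copy of SNORA71, a small nucleolar RNA with several copies under one symbol, had one of -1.65 ± 0.21 at levels of 0 to 3.40 FPKM and is uncertain. All the other 23 lay between -0.65 and -0.45. They included mitochondrial genes, namely Cox5a, of cytochrome oxidase, at 175 to 302 against 307 to 361 FPKM, Ndufb7, of complex I, at 270 to 417 against 431 to 530, and Coq10a, Pdss1, Bola3 and Mrpl12. Pfkfb2, which sets the rate of glycolysis in heart, was at 3.75 to 6.75 against 6.81 to 9.56 FPKM, and Bdh1, the ketone body dehydrogenase, at 20.6 to 35.6 against 35.9 to 46.3. Smyd2, a protein methyltransferase found in the sarcomere, had a log2 difference of -0.49 ± 0.10, and Tesc, a calcium-binding protein of heart, one of -0.55 ± 0.13.

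The treatment labels played no part in making the classes, so MaR1 was compared with vehicle with the Myl7 class in the model. No gene of 12237 passed an adjusted p of 0.05 in limma (0.0%), and 807 had an unadjusted p under 0.05; limma voom on recovered fragments gave 0 and 591. Without the class, limma also gave 0, with 563 at an unadjusted p under 0.05. Of the 22 tested atrial genes, Myl7 included, 6 were higher with MaR1, against 52.8% of all tested genes, and the list's median was -0.22. Several of the 22 kept a nearly fixed proportion to Myl7, so they do not count separately. The class does not adjust for the level of Myl7 within it. In hearts with Myl7 that level was 784, 529 and 225 FPKM for vehicle and 316 and 151 for MaR1. Nothing is therefore read from this count.

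The class is made from Myl7, so for Myl7 and the genes that went with it a change of the treatment value on adding the class follows from how the class was made. Myl4 was at 329 ± 369 FPKM in vehicle and 111 ± 163 in MaR1 hearts (SD, n = 5 each). Its log2 difference, MaR1 minus vehicle, was -1.82 ± 1.97 without the class and -0.52 ± 0.37 with it (limma, adjusted p = 0.857 with the class). For Mybphl the difference went from -1.86 ± 1.65 to -0.77 ± 0.33 (limma, adjusted p = 0.740), and for Sln from -1.93 ± 1.39 to -1.06 ± 0.53 (limma, adjusted p = 0.782). Nppa was at 3106 ± 2308 and 1723 ± 1566 FPKM, and its difference went from -0.97 ± 0.81 to -0.55 ± 0.56. Kcnj3, whose Myl7 classes overlapped, had differences of -0.56 ± 0.16 and -0.52 ± 0.16. Over all tested genes the median standard error was 0.110 without the class and 0.103 with it, and it was smaller with the class in 59.5% of genes.

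**Figure D5:**
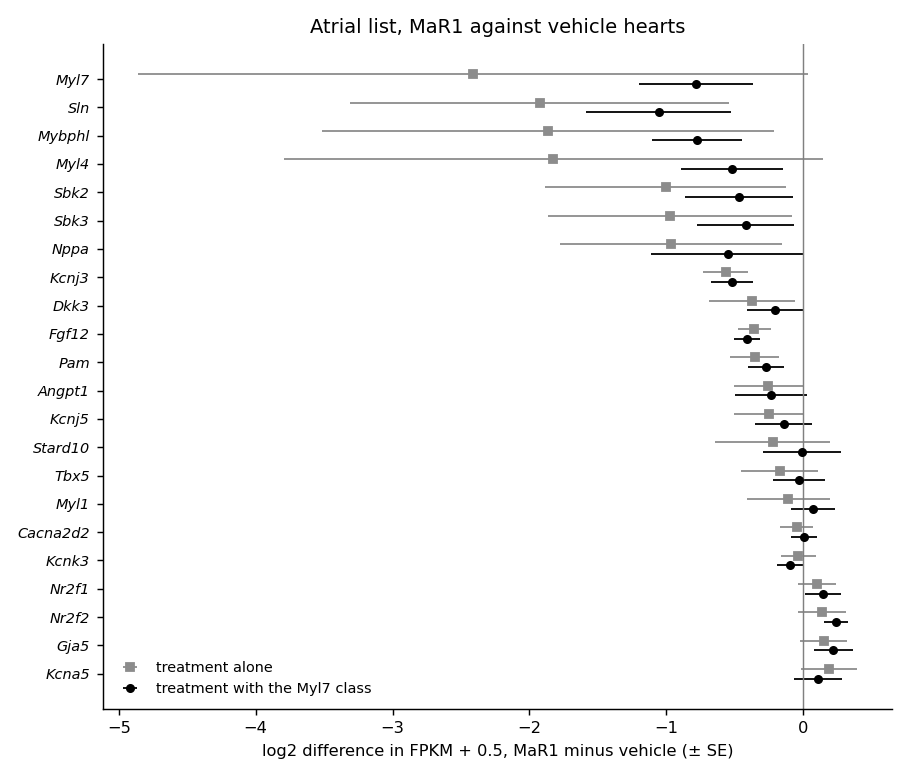
Log2 difference in FPKM + 0.5 between MaR1 and vehicle hearts (± SE) for the 22 tested atrial genes, from a model with treatment alone (grey squares) and one with the Myl7 class added (black circles). Myl7 moves from -2.41 to -0.78 and Myl4 from -1.82 to -0.52 with shorter bars, as follows from a class made from Myl7, while Kcnj3 stays at -0.56 and -0.52.

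The 5 genes of smallest p for MaR1 in the model with the class were Myrip, Eya2, Abcb1b, Tlcd3b and Prkd1, each at an adjusted p of 0.588 in limma. Eya2, a transcriptional cofactor with phosphatase activity, was at 1.96 to 5.09 FPKM in vehicle hearts and 5.73 to 8.55 in MaR1 hearts. Its log2 difference was 1.08 ± 0.20. The 5 genes were named for their small p, so nothing is read from treatment ranges that do not overlap. Myrip, a linker of secretory granules to myosin, was at 8.20 to 11.5 FPKM with vehicle and 12.4 to 17.2 with MaR1, a difference of 0.60 ± 0.09. Abcb1b, a drug efflux pump, and Prkd1, a kinase, had log2 differences of 0.60 ± 0.11 and 0.38 ± 0.08, and Tlcd3b one of -0.43 ± 0.08.

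The kidneys of the same animals did not enter the choice of hearts and were compared by the class of the animal's heart, with treatment in the model. No gene of 12446 passed an adjusted p of 0.05 in limma (0.0%), and 891 had an unadjusted p under 0.05; limma voom gave 0 and 896. With the replicate block 1 gene passed, Akr1c14 (limma, adjusted p = 0.0460). Between the kidneys of the classes 62 genes did not overlap (0.498%). Akr1c14, an aldo-keto reductase with the smallest p in both, was at 4.16 ± 2.80 FPKM in kidneys of animals with Myl7 in the heart and 2.22 ± 1.76 in the others (SD, n = 5 each; limma, log2 difference 1.20 ± 0.22, adjusted p = 0.684 with no block), and its levels overlapped. Within vehicle kidneys Akr1c14 was at 1.28 to 3.01 FPKM against 0.358 to 0.644, and within MaR1 kidneys at 6.97 to 7.35 against 2.08 to 4.08. The overlap thus lay between the treatments. Akr1c14 was named for its small p, so nothing further is read from these ranges. In order of p it was followed by Pltp, Rhbdl3, Snord12 and Pigr. The 14 tested matrix genes, all higher with Myl7 in the heart, were all lower in these kidneys, with a median log2 difference of -0.29, and 1 had an unadjusted p under 0.05; of all tested kidney genes 54.7% were higher. Whether these 14 genes varied together over the kidneys was not tested, so nothing is read from their count. The adipocyte list had a kidney median of -1.16 over 10 tested genes, with none at an unadjusted p under 0.05.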

How the data were processed

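RNA of 10 hearts and 10 kidneys was sequenced, and the authors deposited 1 table of FPKM for 30560 genes. HISAT2 2.0.5, featureCounts 1.5.0-p3, StringTie 1.3.3b and fastp are named per the submitters' processing notes; no source used here names the genome build. The deposited FPKM times gene length came out as whole fragments within 0.01 for 100% of 371175 values above 0, which gave the fragments per library. In the hearts the library size used in the FPKM was 0.812 to 0.983 of the assigned fragments, so it was not their plain total. Tests used log2(FPKM + 0.5) and limma 3.58.1 with a variance trend in R 4.3.3, genes with a mean of at least 1 FPKM, and Benjamini-Hochberg adjustment; smaller tests used scipy 1.17.1. Fold changes of low genes are understated on this scale. The model was tested on simulated data.

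Hearts and kidneys with the same animal number come from the same animal, per the labels, and a fit of both with the animal as a block (replicate block) had a correlation of 0.116 between them. No 2 hearts agreed within sampling noise: over 45 pairs, chi-square divided by its degrees of freedom was at least 10.2. The heart classes and gene lists were chosen with earlier results of these data known. Of 321 listed symbols 310 matched the table. Named genes were all atrial and ventricular list members (except results not reported here), the 25 higher and 25 lower genes of largest difference without overlap that kept their sign without each heart, up to 4 members of other lists and the 5 of smallest p of each test. A few further genes (Pecam1, Hcn4, Bop1, Ca3 with Plin1, Kap) and further list members were chosen after their values were seen.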

Additional observations from a re-analysis of the deposited data

Results flagged for a closer look

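Of 58 sets of 5 hearts (4 library measures and 25 summed marker lists, in each Myl7 class), 4 had a heart whose gap to its nearest neighbour was above Dixon's 95% limit of 0.71 of the range; chance flags about 1 in 20. All 4 lay among the hearts without Myl7. Vehicle heart RB030 was the highest for the summed atrial list, at 3569 FPKM with 1412 in the next heart, and Nppa made up 3022 FPKM of that sum. The same heart was the highest for the secretory granule list, at 4062 against 1718 FPKM, and for the load and injury list, at 8991 against 4354 FPKM. Nppa is a member of all 3 lists. Vehicle heart RB032 was the lowest for the conduction list, at 103 FPKM with 124 in the next heart. Myl7 was at 0.318 FPKM in RB030 and at 0.163 to 1.65 FPKM over the 5 hearts without Myl7. Myl4 was at 2.19 to 4.95 FPKM over these 5 and highest in RB030, against at least 177 FPKM with Myl7. RB030 was also the highest of the 5 for Postn and Ccn2, at 34.7 and 171 FPKM.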

How the results depend on the processing

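Of 1888 values of 80 named genes over 24 alternatives, 1825 moved by less than 1 SD and 63 by more. Changes of sign were counted only for genes whose classes did not overlap, and 0 were found there. The 25 higher and 25 lower genes were named for no overlap and for keeping their sign without each heart. That count of 0 was thus largely fixed by the choice of genes. Genes whose classes overlapped could change sign: Angpt1 went from 0.10 to -0.07 without RB031 and to -0.21 without RB030. The number of genes past the threshold did depend on the setting. Against 46 in the reported model, limma gave 24 with a pseudocount of 1, 6 with no filter, 6 at a mean of at least 5 FPKM and 20 with quantile normalization. It gave 5 with voom on recovered fragments, 18 with total-fragment scaling, 25 with a Myl7 limit of 200 FPKM and 157 with Myl7 as a continuous term. Without RB033, RB034 and RB035 it gave 3, and with the replicate block, which pairs heart and kidney of an animal, 667. Leaving out 1 heart gave 4 (without RB034) to 2126 (without RB031, with all 46 among them). Total-fragment scaling and the omission of RB033, RB034 and RB035 were added after seeing the data; the cause of these shifts was not tested. The share of all genes higher with Myl7 was 47.8% in the deposited FPKM and under median-of-ratios scaling, but 72.2% under total-fragment scaling. This share thus depends on the scaling. Under total-fragment scaling the median of the calcium list went from -0.13 to 0.00 and that of the cardiac transcription factors from -0.03 to 0.10. The count for MaR1 against vehicle was 0 in every alternative, with and without the class, and with the replicate block. That for the kidneys was 0 in all but the replicate block, which gave 1. In the hearts 1 FPKM of a 1 kb transcript was worth 19.7 to 29.8 fragments, so Bmp10 and other genes below 1 FPKM rest on few fragments.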
